A study of Rattus norvegicus with 4 samples.

Results

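This account covers 10 rat genes that release fatty acids from membrane phospholipids or turn arachidonic acid into eicosanoids: Pla2g4a, Pla2g2a, Plb1, Ptgs1, Ptgs2, Ptgds, Ptgis, Alox15, Alox5 and Alox5ap. Every probe set of the array whose platform annotation gives one of these symbols was taken, which gave 14 of the 8799 probe sets and 10 of the 4736 genes that could be named. The study hybridised total RNA of the rat left ventricle to 4 Affymetrix RG_U34A arrays, 1 per group. The groups were a heart in terminal heart failure, a double transgenic rat (dTGR) treated with losartan, a dTGR without losartan named in its label, and a Sprague Dawley (SD) control. The dTGR overexpresses human renin and human angiotensinogen; the labels describe hypertension, heart hypertrophy, proteinuria and death from end organ damage at 7 weeks. Losartan blocks the angiotensin II type 1 receptor. The label of the terminal heart failure sample gives no genotype of its own, although the description attached to all 4 samples speaks of the transgenic rats. The sources used here do not give age at sampling, losartan dose, or how many animals stand behind an array and whether they were pooled.

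Cytosolic and secreted phospholipases cut arachidonic acid out of membrane lipids. Cyclooxygenases turn it into a prostaglandin precursor, from which synthases make prostaglandin D, prostacyclin and other prostanoids, while lipoxygenases make hydroxy fatty acids and, with a helper protein, leukotrienes. In the heart these products come from endothelium, smooth muscle, muscle cells and invading leukocytes, and they act on vessel tone, platelets and inflammation.

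With 1 array per group there is no replicate, no error of a group and no test, so each fold below compares 2 hybridisations. Intensities were scaled to a common trimmed mean, and values under 26.0, the 40th percentile of all values, were treated as not measured above that floor. A gene was called higher or lower where it differed at least 2-fold and one or both of its values exceeded the floor; where 1 side was under it, the fold is a lower bound. A gene with several probe sets is represented by the one with the highest mean intensity, and the other sets of the 10 genes are given beside it. As a guide to disagreement between probe sets, log2 differences of sets for the same gene had a standard deviation of 0.51 to 0.60 within the 6 comparisons. Only sets above the floor on both arrays were used. This spread holds no variation between animals, RNA samples or hybridisations, so it is not the error of a fold between arrays. Intensities of different probe sets are not on a common scale and are compared only across arrays. A sum over marker genes is therefore led by its brightest genes. In whole ventricle, fewer cells of a type and less RNA per cell cannot be told apart.

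The arrays had trimmed means of 199.2 to 199.6 before scaling, and 58.1% to 63.5% of their values lay above the floor. The 100 brightest probe sets took 31.8% of the signal in terminal heart failure, 36.9% in losartan-treated dTGR, 46.3% in dTGR and 32.9% in SD control. The ratio of the 3' to the 5' Gapdh probe set, a sign of RNA integrity, was 1.28 in terminal heart failure, 2.17 in losartan-treated dTGR, 1.73 in dTGR and 1.34 in SD control. Terminal heart failure and losartan-treated dTGR were on one chip lot, dTGR and SD control on another; the terminal heart failure array had a separate hybridisation date, and the dTGR array a separate fluidics protocol. Group and these technical differences cannot be told apart. All 10 cardiomyocyte markers on the array were above the floor on all 4 arrays, among them the ventricular light chain Myl2, and their sum was highest in dTGR, as given with the other markers. The part of these factors in the results below was not tested.

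Of the 10 genes, 8 were above the floor on all 4 arrays. Ptgs2 was above it in terminal heart failure only, and Alox5 on no array. Terminal heart failure held the highest value of 7 of the 8 genes measured on all arrays, where 21.5% of the 2583 genes measured on all arrays peaked there; the exception was Pla2g2a, highest in dTGR. The plot of intensities by array shows this for each probe set. The 10 genes were chosen with earlier results of these data known, so this share describes them and is not evidence about the pathway.

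**Figure D1:**
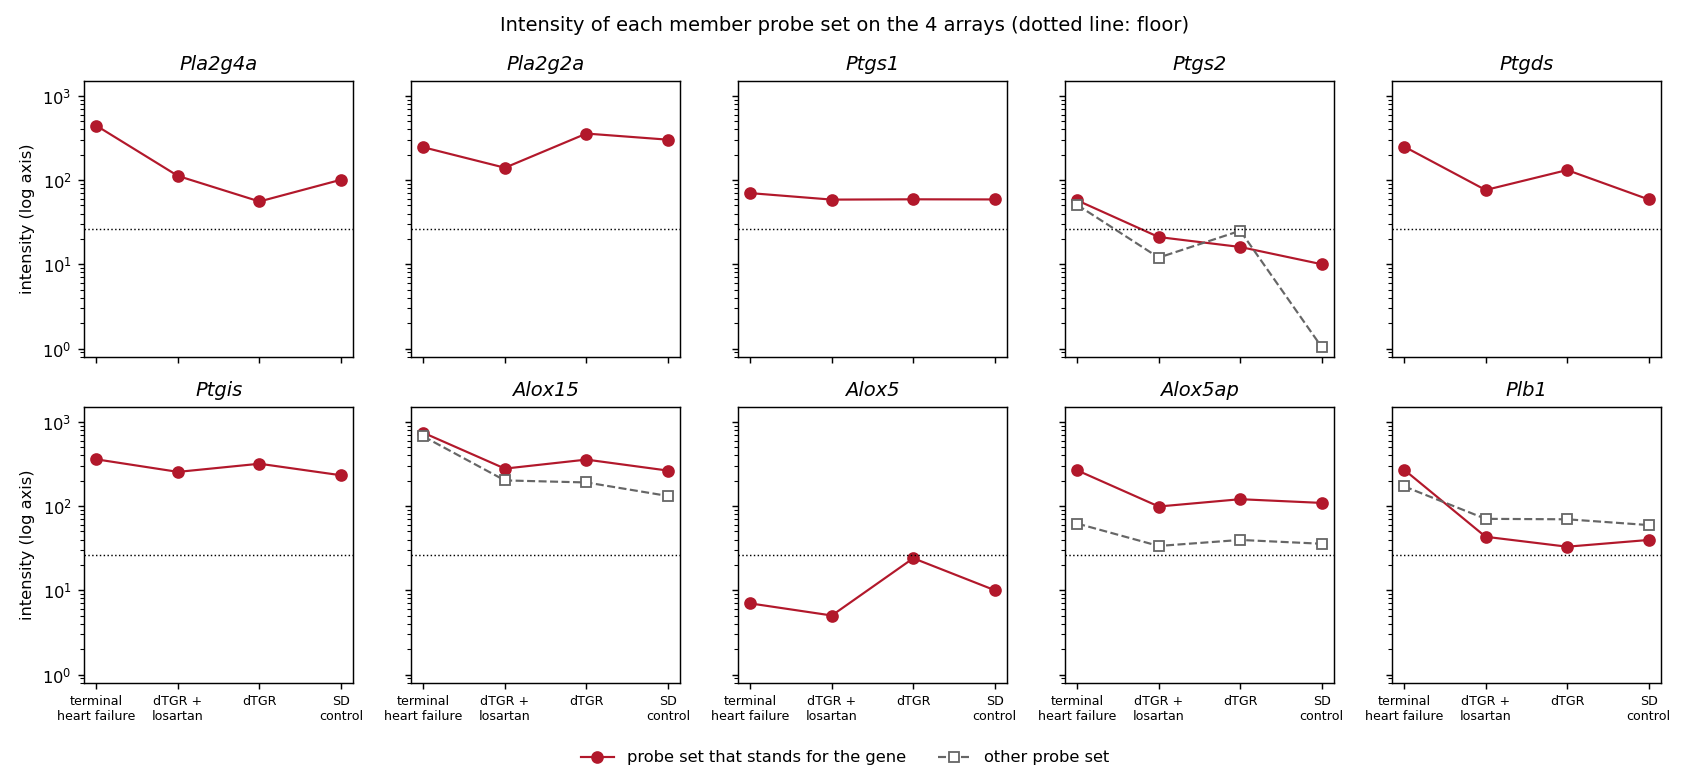
Scaled intensity (log axis, arbitrary units) of the member probe sets on the 4 arrays, 1 array per group, with the floor of 26.0 drawn as a line. Lines join the values of one probe set and mark no order of the groups. Most sets peak in terminal heart failure, Pla2g2a peaks in dTGR, and Alox5 stays under the floor on all 4 arrays.

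Among the phospholipases, Pla2g4a and Plb1 were much higher in terminal heart failure than on each of the other arrays, and Pla2g2a was not. Pla2g4a, the calcium-dependent cytosolic phospholipase A2 that is selective for arachidonic acid (probe set U38376_s_at), had an intensity of 442 in terminal heart failure, 112 in losartan-treated dTGR, 55.7 in dTGR and 101 in SD control. That is 4.38-fold higher in terminal heart failure than in SD control and 7.93-fold higher than in dTGR, the array with its lowest value. By range over the 4 arrays Pla2g4a stood 32 from the top of the 3806 genes above the floor on at least 1 array. Losartan-treated dTGR was 2.01-fold above dTGR for this gene, just past the 2-fold line, and a floor at the 60th percentile ended that call; dTGR was lower than SD control by a log2 difference of -0.86, which does not reach 2-fold.

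Plb1, a membrane phospholipase B best known from the rat intestinal brush border (probe set rc_AI639174_s_at), had an intensity of 270.4 in terminal heart failure, 43.2 in losartan-treated dTGR, 33.0 in dTGR and 39.6 in SD control. The terminal heart failure value was 6.82-fold above SD control, place 15 from the top of 3373 genes, and 8.20-fold above dTGR, place 6 of 3602. The other 3 arrays lay within 1 log2 unit of each other and not far above the floor. A separate Plb1 probe set (E13935cds_s_at) gave 171 in terminal heart failure, 70.6 in losartan-treated dTGR, 69.7 in dTGR and 59.5 in SD control. It was highest on the same array, but its log2 difference between terminal heart failure and SD control was 1.53, against 2.77 for the representative set.

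Pla2g2a, the secreted group IIA phospholipase A2 of inflammatory fluids (X51529_at), had an intensity of 245 in terminal heart failure, 140.1 in losartan-treated dTGR, 357 in dTGR and 302 in SD control. Losartan-treated dTGR was the low array: it stood 2.55-fold under dTGR and 2.15-fold under SD control. Terminal heart failure differed from SD control by a log2 value of -0.30, under the spread between probe sets of one gene. The profiles of Pla2g2a and Plb1 were the most unlike of any pair of these genes, with a root mean square difference of 1.38 log2 units after each was centred over the 4 arrays.

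Of the cyclooxygenases, Ptgs2 had signal above the floor in terminal heart failure only. Ptgs2, the inducible cyclooxygenase (L25925_s_at), gave 57.5 in terminal heart failure, 21.1 in losartan-treated dTGR, 16.1 in dTGR and 10.03 in SD control. Its other probe set (S67722_s_at) gave 50.8 in terminal heart failure, 12.01 in losartan-treated dTGR, 25.1 in dTGR and 1.04 in SD control. Since the last 3 arrays are under the floor in both sets, terminal heart failure was at least 2.21-fold higher by the representative set, and the order of the other arrays cannot be read. By the other set the bound is a log2 difference of 0.97, short of the call. Passing the filter through 1 array, Ptgs2 could only come out higher on that array, whether or not it reached the call. Counts for terminal heart failure below are therefore also given without such genes.

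Ptgs1, the constitutive cyclooxygenase found in platelets and vessel walls (U03388_s_at), had 70.1 in terminal heart failure, 58.7 in losartan-treated dTGR, 59.1 in dTGR and 58.9 in SD control. Its whole range was 1.19-fold, the narrowest of these genes, and the last 3 arrays were almost level.

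Pla2g4a and Ptgs2, which act one after the other on the way to prostaglandins, are also neighbours in the genome. RefSeq on assembly GRCr8 places them on chromosome 13 with 0 protein-coding genes between them and 2 genes of any kind, Pla2g4a on the minus strand and Ptgs2 on the plus strand. The 250 bases before the start are printed 5' to 3' on the gene's strand for this pair, both at their highest in terminal heart failure, and for Plb1 and Pla2g2a, the phospholipases with the most unlike profiles. They lie at chr13:64572353-64572602 (minus strand) for Pla2g4a, chr13:64713813-64714062 (plus) for Ptgs2, chr6:29930184-29930433 (minus) for Plb1 and chr5:156359475-156359724 (plus) for Pla2g2a. RefSeq promoters were matched for 7 of the 10 genes. Capitals mark matches, on either strand, to any of 8 motifs.
Pla2g4a: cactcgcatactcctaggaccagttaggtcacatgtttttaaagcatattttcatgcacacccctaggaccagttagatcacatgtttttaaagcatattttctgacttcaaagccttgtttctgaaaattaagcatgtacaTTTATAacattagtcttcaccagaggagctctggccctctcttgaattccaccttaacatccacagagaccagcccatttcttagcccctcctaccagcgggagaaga
Ptgs2: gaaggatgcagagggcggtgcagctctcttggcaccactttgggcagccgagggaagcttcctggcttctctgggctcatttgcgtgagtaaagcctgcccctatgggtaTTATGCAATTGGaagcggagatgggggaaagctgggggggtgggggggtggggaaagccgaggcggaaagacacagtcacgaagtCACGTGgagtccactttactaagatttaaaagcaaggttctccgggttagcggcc
Plb1: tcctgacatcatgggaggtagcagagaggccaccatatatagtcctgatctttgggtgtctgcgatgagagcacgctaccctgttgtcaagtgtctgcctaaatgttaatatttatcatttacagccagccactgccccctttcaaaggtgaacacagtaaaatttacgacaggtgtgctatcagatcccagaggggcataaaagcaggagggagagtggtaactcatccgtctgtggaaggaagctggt
Pla2g2a: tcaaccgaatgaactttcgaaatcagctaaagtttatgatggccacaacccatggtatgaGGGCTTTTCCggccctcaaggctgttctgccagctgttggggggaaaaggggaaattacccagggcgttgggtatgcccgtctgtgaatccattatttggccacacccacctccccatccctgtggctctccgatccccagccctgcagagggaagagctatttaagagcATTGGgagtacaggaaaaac
The motifs searched, with the share of 33469 rat promoters of the same length that hold each, were the TATA box TATAAA (12.9%), the CCAAT box CCAAT (34.02%), AP-1 TGANTCA (6.34%), C/EBP TTGCNNAA (9.22%), NF-kappaB by a 10-letter core (4.53%), STAT TTCNNNGAA (7.67%), the CRE half-site TGACGT (6.95%) and the E-box CACGTG (5.59%). Pla2g4a held 1 match, to the TATA box on the opposite strand, at -108 to -103 from the start. In Ptgs2 a C/EBP match at -140 to -133 overlapped by 1 base a CCAAT match at -133 to -129, and an E-box match lay at -55 to -50. Pla2g2a had an NF-kappaB match at -190 to -181 and a CCAAT match at -20 to -16. Plb1 had no match to these letters in this window, so no motif could be shared by Pla2g4a, Ptgs2 and Plb1. The matches are a description of the letters and not evidence of binding.

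Among the synthases that act after the cyclooxygenases, the lipocalin-type one for prostaglandin D differed far more between arrays than the one for prostacyclin. Ptgds, the lipocalin-type prostaglandin D synthase (J04488_at), had 250.02 in terminal heart failure, 76.3 in losartan-treated dTGR, 132 in dTGR and 58.9 in SD control. It was 4.24-fold above SD control in terminal heart failure and 2.23-fold above SD control in dTGR, the only one of these genes called higher there. The dTGR call ended when arrays were scaled to the same median, which moved the median of all genes in that comparison to a log2 value of -0.19, against 0.03. The losartan-treated dTGR value lay under the dTGR value by a log2 difference of -0.79 and stood 0.37 above SD control, neither of them 2-fold.

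Ptgis, the prostacyclin synthase of endothelium and smooth muscle (U53855_at), had 359 in terminal heart failure, 255 in losartan-treated dTGR, 318 in dTGR and 232 in SD control. Its range over all 4 arrays was 1.55-fold, and it was called in no comparison. Both transgenic arrays without and with losartan lay between the terminal heart failure and the SD control values.

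The lipoxygenase genes split between Alox15 and Alox5ap, which were clearly detected and higher in terminal heart failure, and Alox5, which was not detected. Alox15, whose rat enzyme is a leukocyte-type lipoxygenase making mainly 12-hydroxy fatty acids (S69383_at), had 742 in terminal heart failure, 279 in losartan-treated dTGR, 357 in dTGR and 264 in SD control. A further Alox15 probe set (L06040_s_at) gave 672 in terminal heart failure, 202 in losartan-treated dTGR, 191 in dTGR and 132 in SD control. Both sets put terminal heart failure highest, 2.81-fold above SD control by the representative set and by a log2 difference of 2.35 in the other. The sets disagreed on losartan-treated dTGR against dTGR, with log2 differences of -0.36 and 0.08.

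Alox5ap, the membrane protein that presents arachidonic acid to 5-lipoxygenase (X52196cds_at), had 266 in terminal heart failure, 98.9 in losartan-treated dTGR, 121 in dTGR and 109 in SD control. The dimmer Alox5ap probe set (rc_AI104781_at) gave 62.1 in terminal heart failure, 33.6 in losartan-treated dTGR, 39.7 in dTGR and 35.7 in SD control. Terminal heart failure was highest in both, 2.43-fold above SD control in the brighter set and by a log2 difference of 0.80 in the dimmer one, which is under 2-fold. Alox5, the 5-lipoxygenase itself (J03960_at), read 6.995 in terminal heart failure, 5.03 in losartan-treated dTGR, 24.1 in dTGR and 10.03 in SD control. All 4 values are under the floor, so Alox5 has no fold and enters no comparison, and nothing is shown about its presence beyond that limit.

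The comparisons below share arrays: terminal heart failure, losartan-treated dTGR and dTGR were each set against the same SD control, so their folds are not independent of each other. The 10 genes were also chosen with earlier results of these data known. A share called above that of all genes therefore describes these genes and is not evidence about the pathway.

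Terminal heart failure against SD control asks how the failing heart differed from a normal one. Of the 9 genes that could be compared, 6 were called higher (Plb1, Pla2g4a, Ptgds, Alox15, Alox5ap and Ptgs2) and 0 lower, where 6.37% of 3373 genes were called higher and 8.42% lower. Without Ptgs2, counting genes whose 2 values both exceed the floor, it was 5 of 8, where 6.07% of 2833 genes were higher and 7.45% lower. By single probe sets 8 of 13 were higher, where 7.36% of 4686 probe sets were higher and 8.62% lower. The median log2 difference over the 9 genes was 1.28, beside -0.14 over all genes tested. The 3 genes not called were Ptgis at 0.63, Ptgs1 at 0.25 and Pla2g2a at -0.30. The plot of log2 differences sets these values beside the other comparisons.

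**Figure D2:**
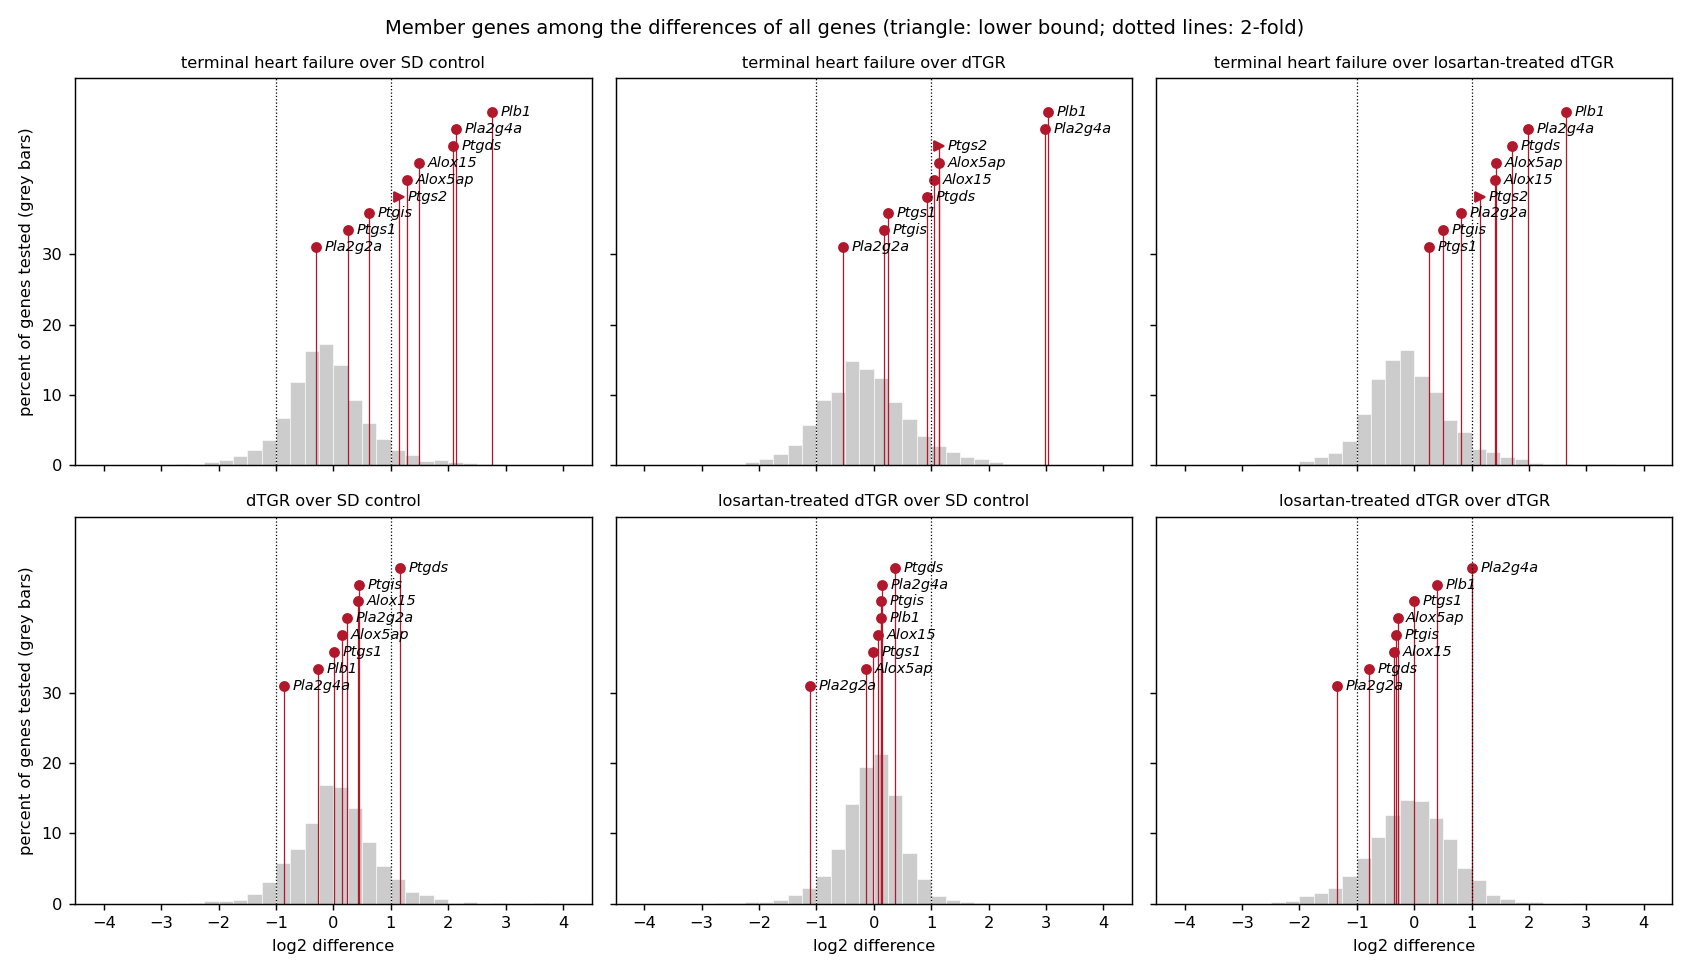
Log2 differences of the member genes in the comparisons, with the percent of all genes tested per bin drawn as grey bars behind them; a triangle is a lower bound, dotted lines mark 2-fold, and the height of a red marker has no meaning. In terminal heart failure against SD control 6 of 9 genes lie beyond 2-fold on the right, and in losartan-treated dTGR against SD control 0 do.

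Terminal heart failure against dTGR gave 5 of 9 genes higher (Plb1, Pla2g4a, Ptgs2, Alox5ap and Alox15) and 0 lower, where 7.69% of 3602 genes were higher and 11.8% lower. Counting genes whose 2 values both exceed the floor it was 4 of 8, where 6.93% of 2787 genes were higher and 9.11% lower. By probe sets 7 of 13 were higher, where 8.29% of 5031 probe sets were higher and 11.3% lower. Pla2g4a stood at place 7 of 3602, next to Plb1, since its dTGR value was its lowest. Alox15 was 2.08-fold and Alox5ap 2.20-fold higher, and Ptgds reached 1.90-fold, short of the call. The median over the 9 genes was 1.06, beside -0.18 over all genes tested. Quantile normalization ended the call for Alox15, and the dimmer probe set that for Alox5ap.

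Terminal heart failure against losartan-treated dTGR is a comparison within 1 chip lot. These arrays differ in hybridisation date and in the Gapdh ratio, 1.28 in terminal heart failure and 2.17 in losartan-treated dTGR. In this comparison 6 of 9 genes were higher and 0 lower, where 7.38% of 3401 genes were higher and 7.5% lower. They were the 6 genes called against SD control: Plb1 was 6.25-fold, Pla2g4a 3.94-fold, Ptgds 3.28-fold, Alox5ap 2.69-fold, Alox15 2.66-fold and Ptgs2 at least 2.21-fold higher. With both values required to exceed the floor it was 5 of 8, where 6.59% of 2793 genes were higher and 7.16% lower. By probe sets 8 of 13 were higher, where 8.9% of 4720 probe sets were higher and 6.93% lower. The median over the 9 genes was 1.41, beside -0.13 over all genes tested.

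The dTGR heart against the SD control asks what the transgenes changed, also within 1 chip lot. These arrays differ in fluidics protocol and in the Gapdh ratio, 1.73 in dTGR and 1.34 in SD control. Ptgds was the 1 gene of 8 called higher and 0 were lower, where 7.66% of 3616 genes were higher and 5.89% lower, so the share called is near the background. By probe sets 1 of 11 was higher, where 7.95% of 5017 probe sets were higher and 6.16% lower. The other genes lay between Pla2g4a at -0.86 and Ptgis at 0.45. The median over the 8 genes was 0.19, beside 0.03 over all genes tested.

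Losartan-treated dTGR against dTGR asks what the receptor blocker changed. Of 8 genes, Pla2g4a was higher and Pla2g2a lower, where 5.98% of 3644 genes were higher and 9.47% lower. By probe sets 1 of 11 was higher and 1 lower, where 5.87% of 5058 probe sets were higher and 10.4% lower. The median over the 8 genes was -0.30, beside -0.05 over all genes tested. These arrays differ in chip lot and in fluidics protocol.

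Losartan-treated dTGR against SD control gave 0 of 8 genes higher and 1 lower, Pla2g2a, where 2.24% of 3399 genes were higher and 4.8% lower. By probe sets 0 of 11 were higher and 1 lower, where 2.75% of 4689 probe sets were higher and 6.1% lower. Apart from Pla2g2a, the genes lay between Alox5ap at -0.14 and Ptgds at 0.37, a median of 0.10 over the 8 genes beside 0.00 over all genes tested. Quantile normalization ended the Pla2g2a call.

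The rest of the pathway was described from 3 lists. Read over all genes, the shares called higher and lower were 6.37% and 8.42% for terminal heart failure over SD control. They were 7.69% and 11.8% for terminal heart failure over dTGR, and 7.38% and 7.5% for terminal heart failure over losartan-treated dTGR. The shares were 5.98% and 9.47% in losartan-treated dTGR against dTGR, 7.66% and 5.89% in dTGR against SD control, and 2.24% and 4.8% in losartan-treated dTGR against SD control. The counts are given beside these shares as a description, and nothing particular to a list is read from them. Other phospholipases and related lipases had 21 of 33 genes on the array, 17 of them above the floor on at least 1 array. In terminal heart failure against SD control 0 of these 17 were higher and 0 lower; the counts were 1 higher and 2 lower of 16 against dTGR, and 1 higher and 2 lower of 16 against losartan-treated dTGR. Losartan-treated dTGR against dTGR gave 3 higher and 4 lower of 17. In dTGR against SD control 2 were higher and 1 lower of 17, and in losartan-treated dTGR against SD control 1 higher and 2 lower of 16. Plcb3, a phospholipase C that makes inositol phosphate signals, had 56.6 in terminal heart failure, 38.5 in losartan-treated dTGR, 121 in dTGR and 41.1 in SD control, the highest in dTGR. Its other probe set was under the floor on all 4 arrays, so the dTGR value rests on 1 set. Pafah1b2, a subunit of a platelet-activating factor hydrolase, had 86.0 in terminal heart failure, 64.1 in losartan-treated dTGR, 16.0 in dTGR and 56.2 in SD control, with dTGR under the floor. Plcg2, a phospholipase C of leukocyte signalling, had 27.1 in terminal heart failure, 24.1 in losartan-treated dTGR, 62.7 in dTGR and 22.0 in SD control. Plcb2, of the same enzyme class, had 27.0 in terminal heart failure, 66.6 in losartan-treated dTGR, 28.1 in dTGR and 24.0 in SD control.

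Other enzymes of eicosanoid synthesis and breakdown had 30 of 45 genes on the array, 24 above the floor on at least 1. In terminal heart failure against SD control 1 was higher (Lta4h) and 3 lower (Cyp2c23, Cyp4a1 and Mgll) of 23, beside 6.37% and 8.42% of all genes. Against dTGR 3 were higher and 0 lower of 23, and against losartan-treated dTGR 3 higher and 1 lower of 24. Losartan-treated dTGR against dTGR gave 0 higher and 0 lower of 24, and dTGR and losartan-treated dTGR against SD control each gave 1 higher and 1 lower of 24. Lta4h, which makes leukotriene B, had 877 in terminal heart failure, 441 in losartan-treated dTGR, 239 in dTGR and 426 in SD control. A companion Lta4h probe set went the other way, with 246 in terminal heart failure, 288 in losartan-treated dTGR, 353 in dTGR and 337 in SD control, so the sets disagree. Mgll, the lipase that cuts the endocannabinoid 2-arachidonoylglycerol to arachidonic acid, had 149 in terminal heart failure, 185 in losartan-treated dTGR, 283 in dTGR and 434 in SD control, 2.92-fold lower in terminal heart failure than in SD control and 2.34-fold lower in losartan-treated dTGR than in SD control. Cyp2c23, an epoxygenase, had 5.07 in terminal heart failure, 77.2 in losartan-treated dTGR, 46.0 in dTGR and 52.9 in SD control, with terminal heart failure under the floor. The 2 other Cyp2c23 sets do not give the lower call: one was under the floor on all 4 arrays, and one read 12.03 in terminal heart failure, 28.1 in losartan-treated dTGR, 50.2 in dTGR and 16.1 in SD control, so that neither terminal heart failure nor SD control was above the floor in it. Cyp4f5, of the family that hydroxylates arachidonic acid, had 72.7 in terminal heart failure, 41.4 in losartan-treated dTGR, 17.1 in dTGR and 39.0 in SD control.

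Eicosanoid receptors and transporters had 10 of 19 genes on the array, 9 above the floor on at least 1. In terminal heart failure against SD control 2 were higher (Ptgfr and Slco2a1) and 1 lower (Ptger3) of 7, beside 6.37% and 8.42% of all genes. Against dTGR 1 was higher and 2 lower of 9, and against losartan-treated dTGR 1 higher and 1 lower of 7. Losartan-treated dTGR against dTGR gave 0 higher and 1 lower of 9; dTGR against SD control gave 1 higher and 0 lower of 9, and losartan-treated dTGR against SD control 0 and 0 of 7. Slco2a1, the prostaglandin transporter, had 117 in terminal heart failure, 35.7 in losartan-treated dTGR, 8.04 in dTGR and 37.5 in SD control. Its other probe set gave 44.1 in terminal heart failure, 13.1 in losartan-treated dTGR, 82.9 in dTGR and 27.0 in SD control, so the sets disagree on dTGR. Ptgfr, the receptor for prostaglandin F, had 275 in terminal heart failure, 161 in losartan-treated dTGR, 196 in dTGR and 116 in SD control, so terminal heart failure stood 2.37-fold above SD control. A second Ptgfr set, with 63.7 in terminal heart failure, 29.1 in losartan-treated dTGR and values under the floor in dTGR and SD control, was also highest there, while another was above the floor in losartan-treated dTGR only, at 41.2. By its brightest set Ptger3, a receptor for prostaglandin E, was at least 3.52-fold lower in terminal heart failure than in SD control, with 22.1 there, 96.5 in losartan-treated dTGR, 103 in dTGR and 91.5 in SD control. The 2 other Ptger3 sets do not give this call: one read 11.99 in terminal heart failure, 28.1 in losartan-treated dTGR, 21.0 in dTGR and 31.1 in SD control, close to the floor, and one was under the floor on all 4 arrays. Ptger4, another receptor for prostaglandin E, was above the floor in dTGR only, at 56.1 beside 3.02 in SD control.

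**Figure D3:**
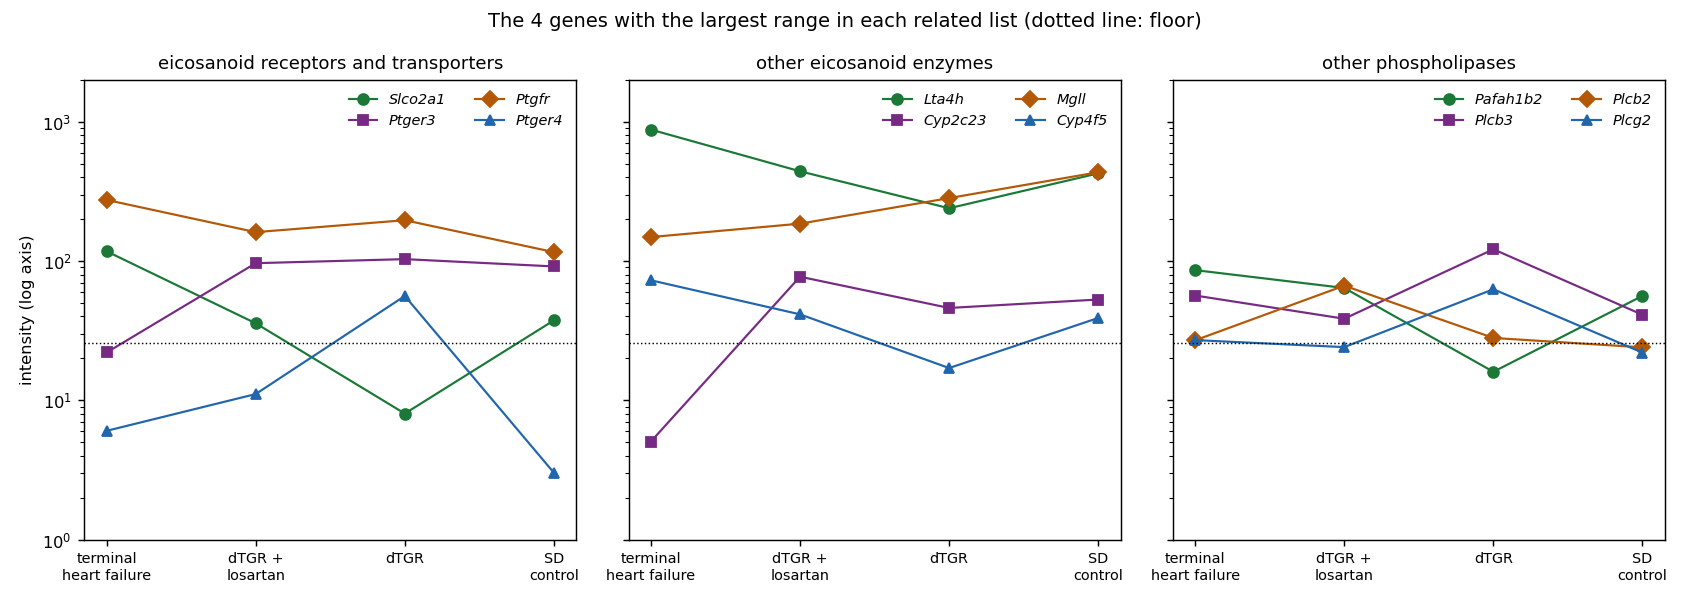
Scaled intensity (log axis, arbitrary units) on the 4 arrays of the 4 genes with the widest range in each of the 3 lists, with the floor as a dotted line; lines join the values of one gene and mark no order of the groups. By the representative sets shown, Slco2a1, Ptgfr and Lta4h are highest and Ptger3, Cyp2c23 and Mgll lowest in terminal heart failure (further sets of Slco2a1, Lta4h, Ptger3 and Cyp2c23 disagree), while Plcb3, Plcg2 and Ptger4 are highest in dTGR.

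Macrophage and neutrophil markers moved with several of these genes, while those of mast cells and of T and B cells had lower sums in terminal heart failure than in SD control. The macrophage list had 7 of 13 genes on the array, 5 above the floor on at least 1 and Csf1r and Itgam under it on all 4; its summed intensity was 4106 in terminal heart failure, 1421 in losartan-treated dTGR, 2103 in dTGR and 1302 in SD control. Lyz2, Lgals3 and C1qb, a lysozyme, a lectin and a complement subunit of macrophages, were called higher in terminal heart failure than in SD control, 3 of 5 beside 6.37% of all genes. The neutrophil list had 2 of 9 genes on the array, both called higher there: S100a8 read 90.4 in terminal heart failure, 4.01 in losartan-treated dTGR, 42.8 in dTGR and 10.1 in SD control, and S100a9 read 77.8 in terminal heart failure, 20.1 in losartan-treated dTGR, 8.02 in dTGR and 27.1 in SD control. Mast cell markers, 5 of the 10 on the array being above the floor, summed to 288 in terminal heart failure, 365 in losartan-treated dTGR, 406 in dTGR and 462 in SD control. T and B cell markers, 6 of the 7 on the array being above the floor on at least 1 array, summed to 164 in terminal heart failure, 143 in losartan-treated dTGR, 273 in dTGR and 246 in SD control. Platelet markers, 3 of 4 above the floor, summed to 620 in terminal heart failure, 371 in losartan-treated dTGR, 343 in dTGR and 542 in SD control. Most of this was Pf4, with 536 in terminal heart failure, 279 in losartan-treated dTGR, 276 in dTGR and 453 in SD control. Endothelial markers, 5 of 5 above the floor on at least 1 array, summed to 561 in terminal heart failure, 540 in losartan-treated dTGR, 570 in dTGR and 434 in SD control. The endothelial sum covers genes that went opposite ways: the receptor Kdr was 2.03-fold lower in terminal heart failure than in SD control and 3.50-fold lower than in dTGR, while the adhesion protein Pecam1 was 2.20-fold higher than in dTGR and the receptor Flt1 3.84-fold higher than in losartan-treated dTGR. None of the mast cell, platelet, or T and B cell markers was called higher in terminal heart failure than in SD control.

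Markers of muscle and of fibroblasts also differed between the arrays compared. The 10 cardiomyocyte markers summed to 102270 in terminal heart failure, 144022 in losartan-treated dTGR, 210766 in dTGR and 110005 in SD control. The dTGR array thus had the highest sum. Of the 10, 5 were lower in terminal heart failure than in dTGR, beside 11.8% of all genes. In dTGR 2 were higher than in SD control, beside 7.66% of all genes. Pln was an exception, with 2259 in terminal heart failure, 3495 in losartan-treated dTGR, 2715 in dTGR and 3093 in SD control. Fibroblast markers, all 8 above the floor on all 4 arrays, summed to 15069 in terminal heart failure, 15641 in losartan-treated dTGR, 13682 in dTGR and 15721 in SD control. Dcn was the largest part, with 11476 in terminal heart failure, 8222 in losartan-treated dTGR, 8702 in dTGR and 7676 in SD control. Over the 8 markers the median log2 difference of terminal heart failure from SD control was -0.56, beside -0.14 over all genes. Although the fibroblast sums lay close together, 3 of the 8 were lower in terminal heart failure than in SD control, beside 8.42% of all genes. They were the collagens Col3a1, 4.03-fold, and Col1a1, 2.15-fold, and the matrix proteoglycan Lum, 3.18-fold. The part of these cells in the values of the 10 genes was not tested.

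**Figure D4:**
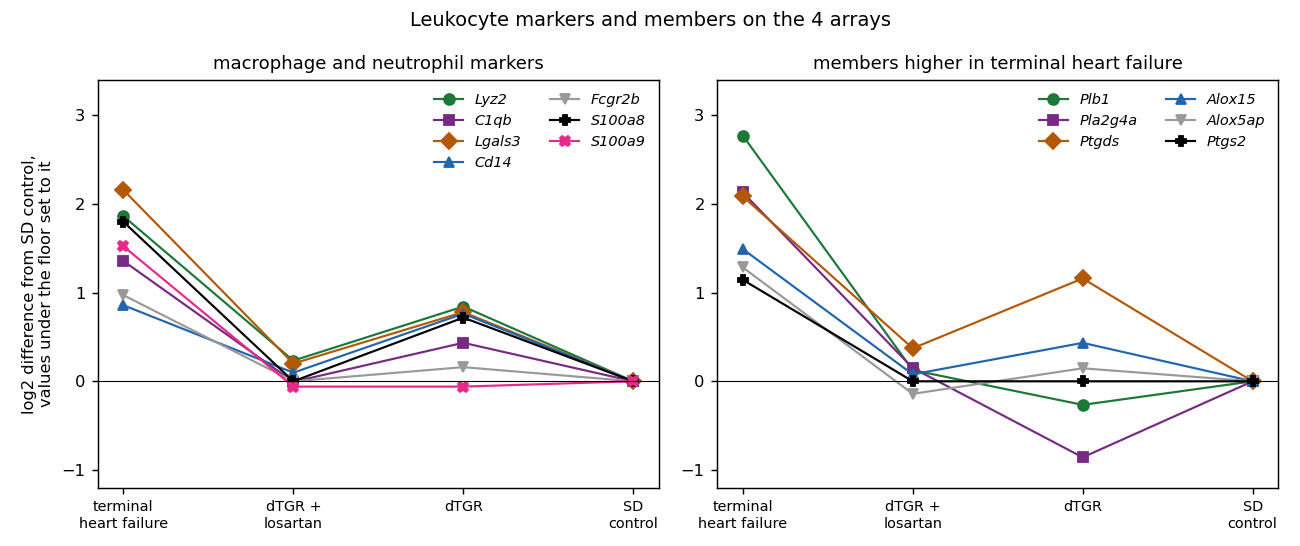
Log2 difference from SD control, with values under the floor set to it, of macrophage and neutrophil markers (left panel) and of the 6 genes called higher in terminal heart failure (right panel) on the 4 arrays. Lines mark no order of the groups. The highest value of each gene lies in terminal heart failure, which for the right panel is largely set by how its genes were chosen. In dTGR, Ptgds, Alox15, Alox5ap and several macrophage markers also lie above 0.

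For the 5 genes with the widest range, the 3 nearest profiles among 3298 other genes were found by the root mean square difference of centred log2 values over the same 4 arrays. Plb1 was nearest to Socs3 (0.23), Trh (0.29) and Sult1a1 (0.31). Pla2g4a was nearest to Errfi1 (0.18), Serpina3n (0.29) and Slco2a1 (0.30), Ptgds to Postn (0.07), Tsc22d1 (0.08) and Ccl2 (0.09). Alox15 was nearest to Nfkbia (0.05), C1qb (0.06) and Glul (0.08), and Alox5ap to Eif4ebp1 (0.06), Phf12 (0.07) and Gata3 (0.07). Values under the floor entered at the floor, among them Socs3 in losartan-treated dTGR and dTGR, and Trh, Serpina3n and Slco2a1 in dTGR. The same held for Postn in SD control, Phf12 in losartan-treated dTGR, and Gata3 in losartan-treated dTGR and SD control. Among the genes themselves Alox15 and Alox5ap were 0.11 apart and Pla2g4a and Plb1 0.31. Over 4 arrays many genes share such a profile, and further probe sets differ for some of them: for Errfi1, dTGR against SD control was -0.49 in the set used and 1.29 in another.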

How the data were processed

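Total RNA from the left ventricle, 1 sample per group, was measured on 1-colour Affymetrix RG_U34A arrays. The deposited values are probe-set intensities on a linear scale, with software and normalization not given in the sources used here; instrument files gave chip lot, fluidics protocol and hybridisation date. Low values stood partly in day-month form, left by a spreadsheet, and were read back as decimals. This held for 13625 of all 35196 values. Of the 56 values of the 10 genes 8 were in this form, all under the floor. The form can reach a little above the floor, so low values given for other genes can be affected. Arrays were brought to a common trimmed mean (2% left out at each end), values under the 40th percentile were raised to it, and differences were taken on the log2 scale. Of the 8799 probe sets, 59 were controls and 7006 had 1 gene symbol. No test was possible with 1 array per group, so the 2-fold call was used. The named genes were every member, up to 4 genes of each list with the widest range, and the 3 nearest profiles. The members and lists were chosen with earlier results of these data known. Promoters came from RefSeq, GRCr8. The calling step was tested on simulated data. Python 3.11.15, pandas 2.3.3 and numpy 2.4.6 were used, and limma 3.58.1 in R 4.3.3 for cyclic loess. The 12 alternatives covered scaling, floor, fold, probe-set choice and the reading of low values.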

Additional observations from a re-analysis of the deposited data

How the results depend on the processing

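With 1 array per group, the values have no replicate error. No paired analysis was possible because each group has 1 array. Under 12 other settings no called difference reversed, and 122 counts stayed within 1.5 times and 485 log2 differences within the spread between probe sets, while 22 counts and 16 differences moved further. The 1.5-fold and 3-fold settings apply to counts and calls only, not to log2 differences. Probe-set choice could not change a gene with 1 probe set, such as Pla2g4a and Ptgds. A floor could not change a difference between values above it. Part of this stability was thus fixed in advance. Plb1 and Pla2g4a in all 3 comparisons of terminal heart failure, and Ptgds in those against SD control and losartan-treated dTGR, were called under all 12. At 3-fold the genes higher in terminal heart failure were 3 against SD control, 2 against dTGR and 3 against losartan-treated dTGR. Over all genes 82 of 3373, 91 of 3602 and 100 of 3401 were higher at 3-fold. With the dimmest probe set 3 were higher against dTGR, where 246 of 3132 genes were. With the 25th percentile floor or none 1 was lower against dTGR. With no floor 1040 of 4736 genes were lower in that comparison, so 1 lower gene does not stand out. For dTGR against SD control the count higher was 0 with the same median, the 60th percentile floor or 3-fold. Over all genes it was 158 of 3554, 58 of 2512 and 68 of 3616. The count was 2 with the 25th percentile floor or none, where 575 of 4213 and 853 of 4736 genes were higher. With the same median or at 1.5-fold 1 was lower, where 380 of 3554 and 581 of 3616 genes were. For losartan-treated dTGR against SD control 1 was higher with no floor, where 514 of 4735 genes were. With quantile normalization or at 3-fold 0 were lower, where 139 of 3439 and 37 of 3399 genes were. For losartan-treated dTGR against dTGR 0 were higher with the 60th percentile floor or at 3-fold, where 93 of 2500 and 37 of 3644 genes were. With the 25th percentile floor, none, or 1.5-fold 2 were lower. Over all genes 647 of 4252, 862 of 4736 and 811 of 3644 were lower. At 3-fold 0 were lower, where 94 of 3644 genes were. The small differences of Plb1 (-0.59 to 0.23), Alox5ap (-0.09 to 0.26) and Ptgs1 (-0.23 to 0.01) in dTGR against SD control changed sign, as did Alox15 (-0.44 to 0.08) and Ptgs1 (-0.01 to 0.22) in losartan-treated dTGR against dTGR and Ptgs1 (-0.01 to 0.10) in losartan-treated dTGR against SD control. Scaling to the same median moved the median of all genes to -0.19, against 0.03, in dTGR against SD control, and the calls over all genes to 158 higher and 380 lower, against 277 and 213. The same scaling gave 443 higher and 225 lower, against 277 and 426, for terminal heart failure against dTGR (median 0.09, against -0.18) and 340 and 216, against 218 and 345, for losartan-treated dTGR against dTGR (median 0.17, against -0.05). Quantile normalization gave 214 higher and 247 lower for dTGR against SD control, 333 and 334 for terminal heart failure against dTGR, and 275 and 284 for losartan-treated dTGR against dTGR. Cyclic loess gave 271 higher and 209 lower, against 215 and 284, for terminal heart failure against SD control, 332 and 297 for terminal heart failure against dTGR, and 102 and 134, against 76 and 163, for losartan-treated dTGR against SD control. The causes were not tested. Signal near the floor limits Plb1 outside terminal heart failure, Ptgs2 and Alox5.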
